A study of Mus musculus with 18 samples.

Results

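The 10 genes described here are 6 that astrocytes raise when they become reactive and 4 that mark resting astrocytes, measured in 18 mouse hippocampus arrays. The reactive genes are Gfap, Vim, Serpina3n, Lcn2, Osmr and Timp1, and the resting genes are Aqp4, Slc1a2, Slc1a3 and Aldh1l1. They were chosen by name, with earlier results of these data known. The shares over all probe sets set beside their counts are therefore a description. Every probe set that the platform annotation assigns to 1 of the genes alone was taken, which gave 28 of the 45101 probe sets on the array. A probe set is a group of short probes that together report the signal of one transcript. Of these, 24 passed a filter on low signal, 11 of reactive and 13 of resting genes, and each of the 10 genes kept at least 1. The filter used the mean over all arrays, without regard to group.

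The arrays came from 6 aged hippocampi with impaired spatial memory, 6 aged hippocampi with unimpaired spatial memory and 6 young hippocampi, the last also labelled as unimpaired. The series set aged animals with poor spatial memory beside aged animals with good spatial memory, with young animals as a further group. The labels give no age, strain, sex or treatment, and do not say whether each array came from a separate animal, so the p-values measure the spread between these arrays, part of which may be technical. Whole hippocampus was used, in which astrocytes are one cell type among neurons and other glia.

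Astrocytes take up glutamate and potassium, move water and supply neurons with metabolites. After injury, inflammation or with age they become reactive: they enlarge, build more intermediate filaments and release acute-phase proteins and protease inhibitors. Cytokines of the interleukin-6 family, among them oncostatin M, drive many of these genes through the JAK kinases and the transcription factor STAT3. In the hippocampus Gfap is already abundant in resting astrocytes, so a change in it is one of degree.

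Short stretches near transcript starts are shown because the filament gene, the lipocalin gene and a resting transporter each carry letters that factors of these pathways can bind. A STAT, an AP-1 and a C/EBP motif were searched on both strands in windows of 300 bases that reach from before 1 RefSeq transcript start per gene into the transcript (GRCm38.p6): TTCNNNGAA, bound by STAT factors, TGANTCA, bound by AP-1, and TTGCNNAA, bound by C/EBP factors. Each sequence runs 5′ to 3′ on the gene's own strand, and capitals mark the matched motif.
Gfap, chr11:102897181-102897232, minus strand, STAT motif: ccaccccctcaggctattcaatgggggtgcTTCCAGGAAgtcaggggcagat
Lcn2, chr2:32387918-32387985, minus strand, C/EBP motif: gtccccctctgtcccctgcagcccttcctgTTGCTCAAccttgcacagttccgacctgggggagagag
Slc1a3, chr15:8710865-8710933, minus strand, STAT motif: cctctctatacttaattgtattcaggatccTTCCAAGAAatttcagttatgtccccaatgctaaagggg

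Bases are counted from the transcript start of the window. That start is also the outermost start of the gene for Gfap, Lcn2, Slc1a3, Vim and Timp1, while it lies inside the gene for Aldh1l1 (by 25 bases), Serpina3n (62 bases), Osmr (655 bases) and Slc1a2 (48199 bases). The STAT motif of Gfap spans this start, beginning at base -2, while that of Slc1a3, a resting gene, lies at base -96. An AP-1 motif of Osmr begins at base 4 of that transcript and the C/EBP motif of Lcn2 at base -216. C/EBP motifs were also present in the windows of the resting genes Slc1a2 (base -158) and Aldh1l1 (base -234), and the windows of Vim, Serpina3n and Timp1 held none of the 3 motifs. Over all 27025 windows of this length, 8.47% held the STAT motif, 7.93% the AP-1 motif and 10.8% the C/EBP motif. No window of Aqp4 was used here. A match describes the letters only, and matches were present in windows of both classes of gene.

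Values are given as log2 of the deposited signal after each array was scaled to the same mean and 16 was added. Differences are on that scale, where the added 16 shrinks the change of a dim gene, and errors after ± are standard errors of the limma fit unless an SD is named. A probe set was called when its p, adjusted over all 27022 probe sets tested by the Benjamini-Hochberg method, was under 0.05. Each gene is given on its probe set of highest mean, with the others beside it. The number of arrays limits the precision: over all probe sets tested, a group difference had a median standard error of 0.12. Deposited signals ran from 0 to 27601, with a median per array of 23.5 to 30.5. As a gauge of signal without the transcript, 14 genes of other tissues (21 probe sets) read 4.03 to 9.25, with a median of 5.24. The top of this range came from a single probe set, that of Myh7 (7.85 to 9.25), and no other read above 7.59 (Sftpc). Whether the Myh7 signal is free of transcript was not tested. No fold is given for a gene with young values in the whole range.

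Before the single genes, 3 arrays need naming, since several results differed without them. Aged impaired replicates 2 and 6 and aged unimpaired replicate 6 had the highest values of all 18 arrays for each of the 6 reactive genes. This holds on the probe set of highest mean, and for Gfap by a small margin (13.74 in aged impaired replicate 6, 13.72 in aged impaired replicate 1). These arrays also had the highest mean of 19 microglia genes, at 10.05, 9.90 and 9.98, against 9.54 or less in every other array. The fit and the correlations were therefore also made without these 3 arrays, a choice made after seeing the data. In whole tissue, more cells of a type and more RNA per cell cannot be told apart.

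Reactive astrocyte genes were higher in aged impaired than in young hippocampi. Lcn2 is left out of the counts and medians against young samples, because its mean in young samples, 4.92, lay below the lowest mean tested, 5.92, so that it was tested only through its level in the aged samples. Of the 10 tested probe sets of the other 5 reactive genes, 6 rose and 0 fell in aged impaired samples, where 1.03% of all tested probe sets rose and 0.6% fell. Counted once per gene, Gfap, Serpina3n and Osmr rose, 3 of the 5 genes, beside 1.3% of all 13121 named genes. The median difference of the 5 genes was 0.93, against -0.00 over all named genes. All 6 aged impaired samples lay above all 6 young samples for 6 of the 10 probe sets, against 1.12% of all tested probe sets. Without the 3 arrays named above, 4 of these probe sets rose.

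Gfap encodes the main intermediate filament protein of astrocytes and is the classical marker of their reactive state. Its log2 value (lowest, median and highest) was 13.47, 13.71 and 13.96 in aged impaired, 13.25, 13.45 and 13.87 in aged unimpaired, and 12.58, 12.76 and 13.37 in young samples. All aged impaired samples were above all young ones, while 2 aged unimpaired samples lay within the range of the young, whose replicates 3 and 4 (13.27 and 13.37) stood above the other young samples. Gfap was 1.71-fold higher in aged impaired than in young samples (difference 0.77 ± 0.14, 95% interval 0.47 to 1.07, n = 6 per group, adjusted p = 0.00992). Without the 3 arrays the difference was 0.69 with adjusted p = 0.0587.

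The other probe sets of Gfap differed in the same direction. On the probe set 1426509_s_at the values were 12.68, 13.08 and 13.38 in aged impaired, 12.60, 12.73 and 13.20 in aged unimpaired, and 11.59, 11.87 and 12.53 in young samples, so that neither aged group overlapped the young. The rise in aged impaired over young samples was 1.04 ± 0.16 (2.05-fold, adjusted p = 0.00317), and 0.91 with adjusted p = 0.0243 without the 3 arrays. The dimmest of the Gfap probe sets, 1440142_s_at, overlapped between groups and did not pass (0.79 ± 0.20, adjusted p = 0.0503). It passed in 11 of 33 alternatives, among them those without young replicate 3 or 4, aged impaired replicate 4 or aged unimpaired replicate 6 (adjusted p = 0.0171 to 0.0488).

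Vim encodes vimentin, an intermediate filament protein that reactive astrocytes build together with Gfap protein and that vessel and meningeal cells also make. Its value was 10.93, 11.42 and 12.37 in aged impaired, 10.56, 10.96 and 11.84 in aged unimpaired, and 10.30, 10.73 and 11.01 in young samples. The groups overlapped, with aged impaired replicate 2 highest of all arrays. The difference between aged impaired and young samples, 0.78 ± 0.23, did not pass (adjusted p = 0.0914). The probe sets 1438118_x_at and 1456292_a_at passed, with 0.82 ± 0.20 (adjusted p = 0.0454) and 0.86 ± 0.21 (adjusted p = 0.0477), and on both no aged impaired sample overlapped the young range.

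Both Vim calls were close to the threshold. That of 1438118_x_at ended when any young sample, aged impaired replicate 2, 3, 5 or 6, or aged unimpaired replicate 1, 2, 4 or 5 was left out. That of 1456292_a_at ended when any young sample, aged impaired replicate 1, 2, 3 or 6, or aged unimpaired replicate 1, 2, 3, 4 or 5 was left out. Their highest adjusted p over the alternatives other than the microglia covariate was 0.119 and 0.14.

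Serpina3n encodes a secreted serine protease inhibitor of the acute phase and is among the genes most induced in reactive mouse astrocytes. Its value was 10.23, 10.37 and 11.24 in aged impaired, 9.90, 10.08 and 11.10 in aged unimpaired, and 9.05, 9.22 and 9.47 in young samples. No aged sample of either group overlapped the young samples, and aged impaired replicates 2 and 6 (11.24 and 11.20) and aged unimpaired replicate 6 (11.10) stood well above the other aged samples. Some young values lay at the upper end of the range of the genes of other tissues, which Myh7 alone reached. Serpina3n rose in aged impaired over young samples (1.39 ± 0.21, 95% interval 0.95 to 1.82, adjusted p = 0.00215). Without the 3 arrays the rise was 1.08 (adjusted p = 0.000126).

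Osmr encodes the receptor subunit that binds oncostatin M and signals with the shared subunit Il6st. Its value was 8.04, 8.32 and 8.75 in aged impaired, 7.91, 8 and 8.67 in aged unimpaired, and 7.17, 7.38 and 7.67 in young samples. Neither aged group overlapped the young samples, and the 3 arrays named above were again the highest. All its values lay within the range of the genes of other tissues, of which the part above 7.59 came from Myh7 alone. Osmr rose in aged impaired over young samples (0.99 ± 0.15, adjusted p = 0.00209), and the rise was 0.82 without the 3 arrays (adjusted p = 0.00288).

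A second tested probe set of Osmr, 1418675_at, was dim and differed from the first. It read 5.91, 6.4 and 6.96 in aged impaired, 4.50, 5.98 and 6.48 in aged unimpaired, and 5.48, 5.95 and 6.38 in young samples, so all groups overlapped. It did not pass in aged impaired against young samples (0.52 ± 0.29, adjusted p = 0.4), and its mean was lower in aged unimpaired than in young samples (-0.21 ± 0.29, adjusted p = 0.9).

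Lcn2 encodes lipocalin, a secreted protein that binds bacterial iron carriers and is a marker of reactive astrocytes. Its value was 6.26, 6.88 and 10.22 in aged impaired, 5.99, 6.97 and 9.53 in aged unimpaired, and 4.12, 5.00 and 5.47 in young samples. No aged sample overlapped the young samples, but the spread within the aged groups was wide: aged impaired replicates 2 and 6 and aged unimpaired replicate 6 read 10.22, 9.18 and 9.53, and no other aged sample was above 7.26. The young values lay within the range of the genes of other tissues. The means differed by 2.70 between aged impaired and young samples, and by 1.66 without the 3 arrays, which is given as a description because the probe set was tested only through its level in the aged samples.

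Limma's adjusted p for Lcn2 was 0.0459 with the filter on low means and 0.0947 without it, and it was under 0.05 in 12 of 32 alternatives. It was above 0.05 when any young sample, aged impaired replicate 1, 2 or 6, or aged unimpaired replicate 1, 3, 4 or 5 was left out. The highest adjusted p over the alternatives other than the microglia covariate was 0.149.

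Timp1 encodes a secreted inhibitor of matrix metalloproteinases. Its value was 6.36, 6.93 and 7.63 in aged impaired, 5.43, 6.55 and 7.78 in aged unimpaired, and 5.22, 6.12 and 6.4 in young samples. The groups overlapped, within the range of the genes of other tissues. The difference between aged impaired and young samples, 0.93 ± 0.31, did not pass (adjusted p = 0.146).

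**Figure D1:**
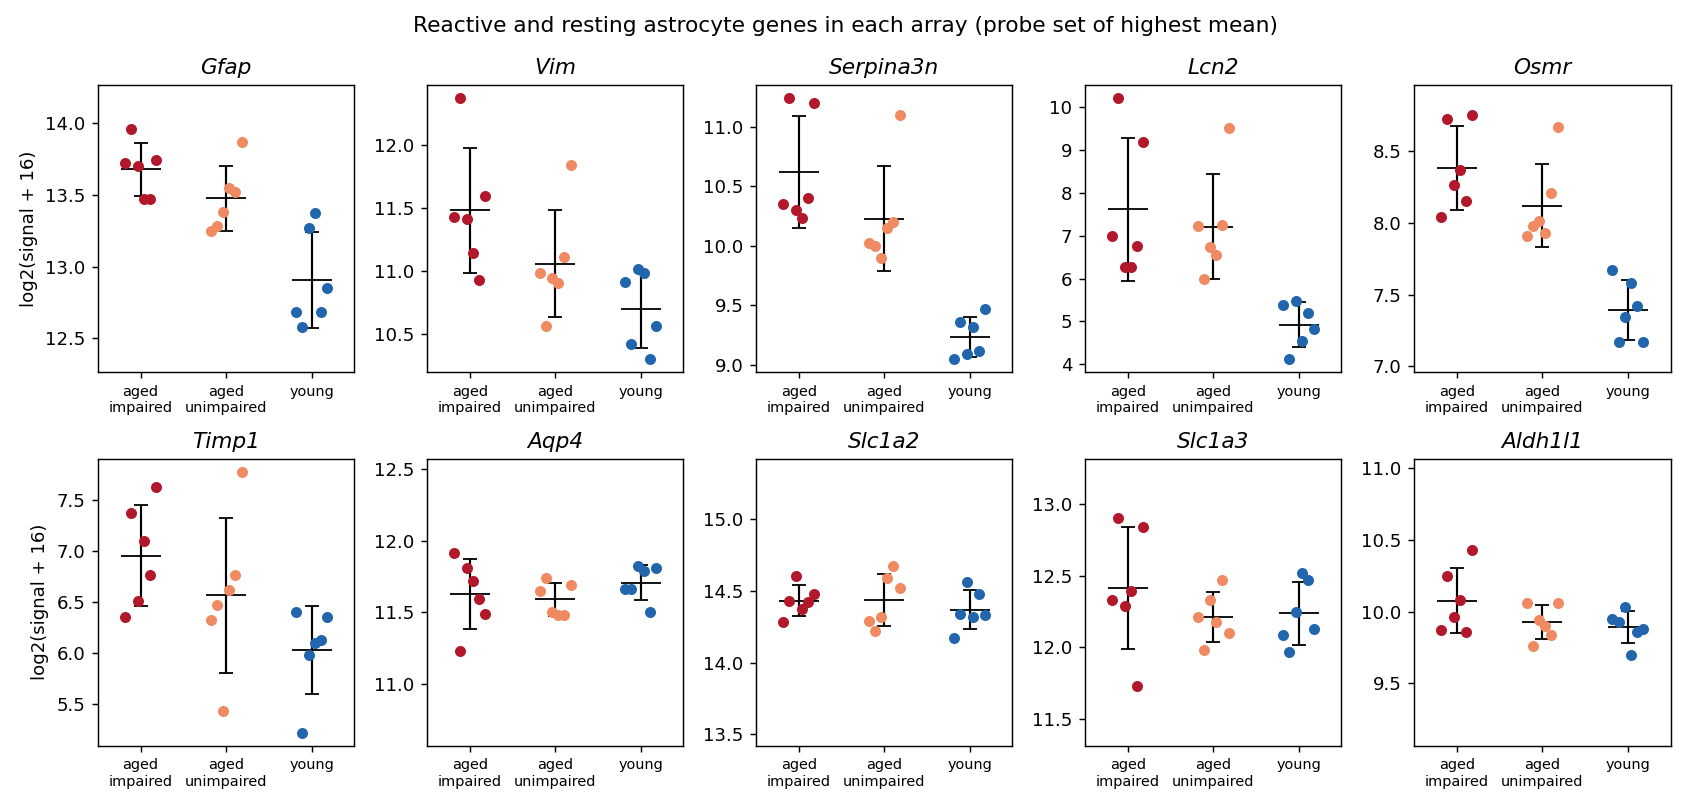
Log2(signal + 16) of each gene on its probe set of highest mean, 1 point per array, for aged impaired, aged unimpaired and young samples, with the group mean (long line) and SD (bars, n = 6). All 6 aged impaired points lie above all 6 young points for Gfap, Serpina3n, Lcn2 and Osmr, and the groups overlap for Vim, Timp1 and the 4 resting genes in the lower row; the vertical scales differ between genes.

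The resting astrocyte genes did not pass in any comparison. Of their 13 tested probe sets, 0 were called in aged impaired against young samples by limma, and 0 had an unadjusted p under 0.05, where 15.8% of all tested probe sets did. Their differences ran from -0.14 to 0.27, and the median of the 4 genes was 0.12. All groups overlapped for each of the 13 probe sets.

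Aqp4, the water channel of astrocyte endfeet, read 11.23, 11.65 and 11.91 in aged impaired, 11.48, 11.57 and 11.74 in aged unimpaired, and 11.50, 11.72 and 11.82 in young samples. The difference between aged impaired and young samples was -0.08 ± 0.10, with a 95% interval of -0.29 to 0.13. Its other 2 tested probe sets differed by 0.12 ± 0.15 and -0.05 ± 0.11. The interval leaves room for a small change in either direction.

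Slc1a2 encodes the glutamate transporter that clears most synaptic glutamate in the forebrain. It read 14.28, 14.42 and 14.60 in aged impaired, 14.22, 14.42 and 14.67 in aged unimpaired, and 14.17, 14.33 and 14.56 in young samples, with closely matching ranges. The difference between aged impaired and young samples was 0.07 ± 0.09 (95% interval -0.12 to 0.25). Its other tested probe sets gave 0.27 ± 0.20, -0.13 ± 0.10 and -0.14 ± 0.39, the last on a dim probe set.

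Slc1a3, the other astrocytic glutamate transporter, read 11.73, 12.36 and 12.90 in aged impaired, 11.98, 12.19 and 12.47 in aged unimpaired, and 11.97, 12.19 and 12.52 in young samples. The aged impaired samples held both the lowest and the highest values. The difference between aged impaired and young samples was 0.17 ± 0.16 (95% interval -0.17 to 0.51), and the other 3 tested probe sets gave differences of 0.07, 0.13 and 0.15.

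Aldh1l1, a folate-metabolising enzyme used as a general marker of astrocytes, read 9.86, 10.02 and 10.43 in aged impaired, 9.76, 9.92 and 10.06 in aged unimpaired, and 9.70, 9.90 and 10.03 in young samples. Among the resting genes it had the lowest adjusted p in aged impaired against young samples, 0.367, with a difference of 0.18 ± 0.10 (95% interval -0.02 to 0.38). Its second probe set, which was dim, gave 0.06 ± 0.22. The 4 probe sets that the filter left out, 1 of Osmr, 1 of Slc1a2 and 2 of Slc1a3, had group means between 4.60 and 6.02.

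Aged unimpaired and young samples differed in the same direction for all 6 reactive genes, each on its brightest probe set, but none was called. Of the 10 reactive probe sets other than that of Lcn2, 0 passed limma's adjusted threshold, beside 0.137% of all tested probe sets, and 7 had an unadjusted p under 0.05, beside 8.19% of all. The closest were Osmr (0.73 ± 0.15, adjusted p = 0.0639), the Gfap probe set 1426509_s_at (0.80 ± 0.16, adjusted p = 0.0679) and Serpina3n (0.99 ± 0.21, adjusted p = 0.0787). The groups did not overlap for 3 of the 10, 1 each of Gfap, Serpina3n and Osmr, against 0.44% of all with the aged unimpaired samples higher. The median of the 5 genes was 0.57.

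The remaining reactive genes were farther from the threshold. Gfap differed by 0.57 ± 0.14 on its probe set of highest mean (adjusted p = 0.173), Timp1 by 0.53 ± 0.31 (adjusted p = 0.689) and Vim by 0.36 ± 0.23 (adjusted p = 0.717). The means of Lcn2 differed by 2.30 (adjusted p = 0.269). Without the 3 arrays, Serpina3n (0.82, adjusted p = 0.000807) and Osmr (0.62, adjusted p = 0.0264) passed. The Gfap probe set 1426509_s_at also passed when young replicate 3 or 4 was left out (adjusted p = 0.0374 and 0.0431). The 4 resting genes differed by -0.12 ± 0.10 (Aqp4), 0.07 ± 0.09 (Slc1a2), -0.03 ± 0.16 (Slc1a3) and 0.04 ± 0.10 (Aldh1l1), and 0 of their 13 probe sets had an unadjusted p under 0.05.

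Between the aged groups, no reactive or resting gene was called by limma. The means of all 11 reactive probe sets were higher in aged impaired than in aged unimpaired samples, where 51.8% of all tested probe sets were, and the median of the 6 genes was 0.39. At an unadjusted p under 0.05 there was 1 reactive probe set, the dim Osmr probe set 1418675_at (0.73 ± 0.29, adjusted p = 0.538), beside 8.09% of all tested probe sets. Its mean in aged unimpaired samples, 5.72, lay below the lowest mean tested, 5.92. It passed the filter through its level in aged impaired samples, 6.45. Its p and its place among the 11 are therefore a description. Called probe sets made up 0.0111% of all in this comparison.

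The sizes and intervals between the aged groups were as follows. Gfap differed by 0.20 ± 0.14 (95% interval -0.10 to 0.50), Vim by 0.42 ± 0.23 (-0.05 to 0.90), and Serpina3n by 0.39 ± 0.21 (-0.05 to 0.83). Osmr differed by 0.26 ± 0.15 (-0.05 to 0.57), Timp1 by 0.39 ± 0.31 (-0.26 to 1.05) and Lcn2 by 0.40 ± 0.66 (-0.98 to 1.78). For each of these 6 the groups overlapped, and aged unimpaired replicate 6 lay among the highest aged impaired samples. The mean of Lcn2 was lower in aged impaired than in aged unimpaired samples without the 3 arrays (-0.18) and without aged impaired replicate 2 (-0.12).

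Group means followed the order aged impaired, aged unimpaired and young, from high to low, for 9 of the 10 reactive probe sets other than that of Lcn2 and 4 of 13 resting probe sets, against 20.2% of all tested probe sets. The 10 reactive probe sets come from 5 genes, so they are not 10 separate observations of that order. Neighbours in that order did not pass the adjusted test for any reactive gene, although aged unimpaired and young samples did not overlap for the 3 probe sets given above.

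With the aged groups joined and set against young samples, 4 of the 10 reactive probe sets other than that of Lcn2 rose, beside 0.614% of all tested probe sets that rose and 0.947% called in either direction. They were both brighter Gfap probe sets (0.67 ± 0.12, adjusted p = 0.0128, and 0.92 ± 0.14, adjusted p = 0.00353), Serpina3n (1.19 ± 0.18, adjusted p = 0.00289) and Osmr (0.86 ± 0.13, adjusted p = 0.00244). For Lcn2 the means differed by 2.5, with an adjusted p of 0.0456 that was under 0.05 in 12 of 31 alternatives. All 12 aged samples lay above all 6 young samples for the Gfap probe set 1426509_s_at, Serpina3n and Osmr, 3 of the 10, against 0.211% of all tested probe sets. This comparison shares its young samples with both others. The 13 resting probe sets had 0 calls by limma, 0 at an unadjusted p under 0.05 beside 13.4% of all, and differences between -0.11 and 0.27.

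**Figure D2:**
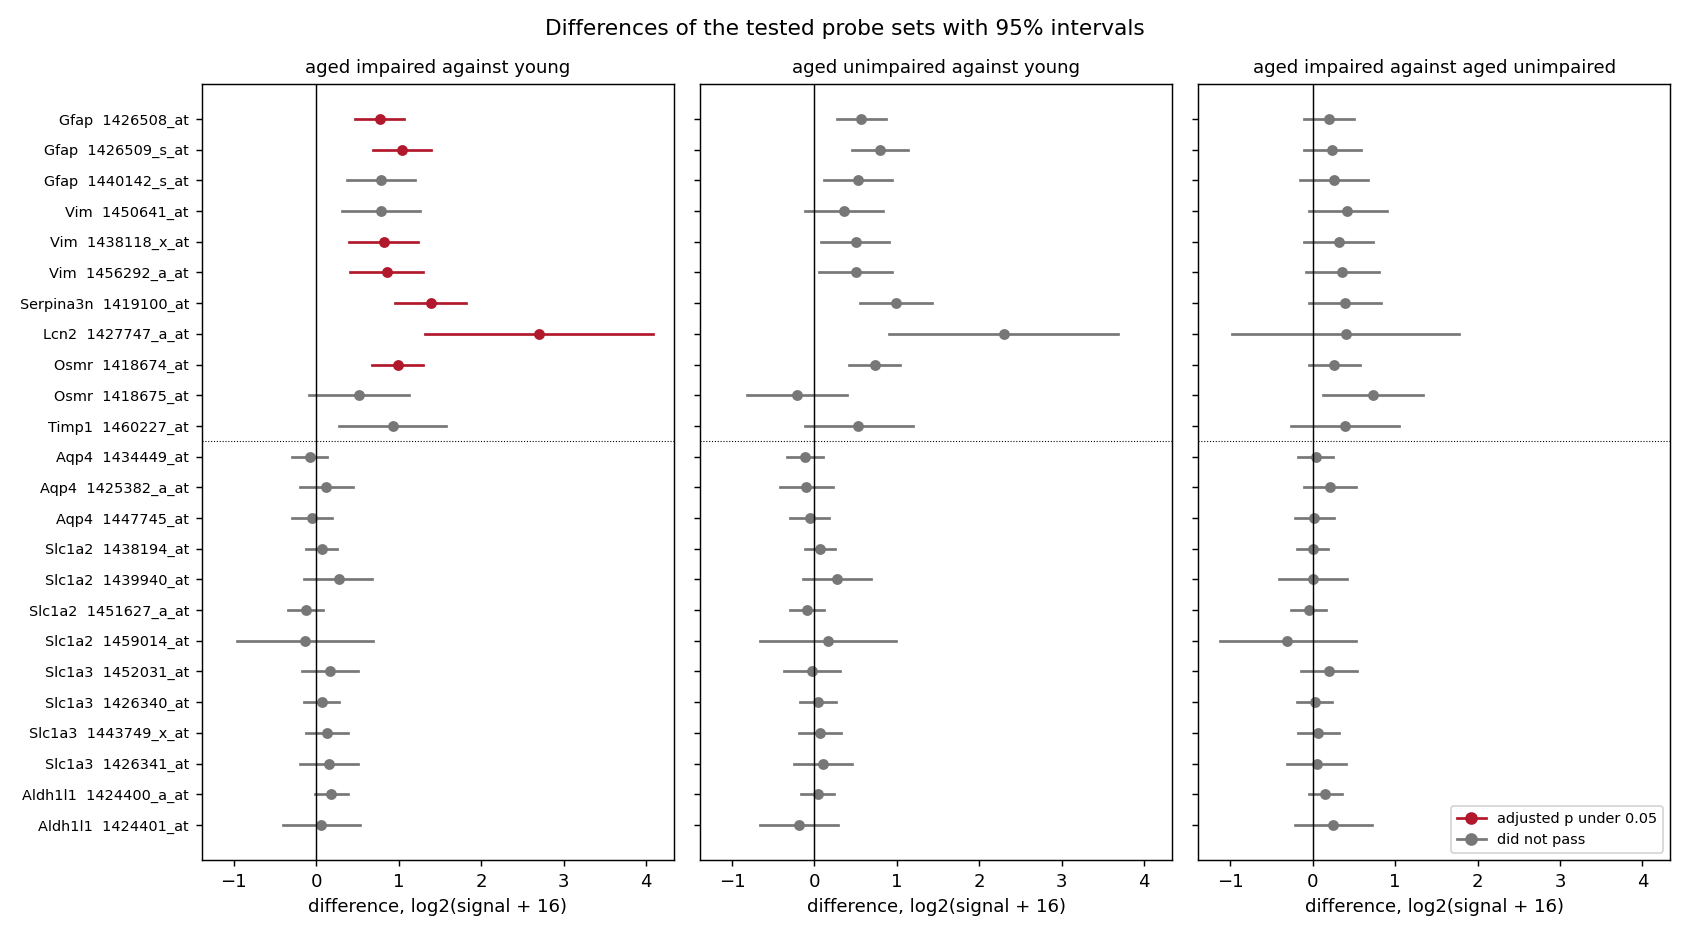
Difference in log2(signal + 16) with its 95% interval for each of the 24 tested probe sets, reactive genes above the dotted line and resting genes below it, in 3 comparisons; red marks an adjusted p under 0.05. Calls appear only for reactive genes in aged impaired against young samples, and the interval of Lcn2, which was tested only through its level in the aged samples, is the widest.

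Other genes of the same biology were counted from 3 lists, each gene on its probe set of highest mean. These lists too were chosen with earlier results of these data known. Of 33 further reactive astrocyte genes, 25 were tested and 4 rose in aged impaired over young samples, while 0 fell, beside 1.3% of all named genes that rose, with a median of 0.35 and a higher mean for 21 of 25, beside 49.2% of all named genes. They were H2-D1, a class I antigen-presenting molecule (0.83 ± 0.19, adjusted p = 0.0313), Aspg, an asparaginase (0.88 ± 0.21, adjusted p = 0.045), Cd14, a co-receptor for bacterial lipopolysaccharide (0.85 ± 0.21, adjusted p = 0.047), and S1pr3, a receptor for sphingosine 1-phosphate (0.77 ± 0.19, adjusted p = 0.047). H2-D1 and Cd14 are also expressed by microglia. These calls were close to the threshold: they held in 21 (H2-D1), 14 (Aspg), 11 (Cd14) and 11 (S1pr3) of 33 alternatives, and none held without the 3 arrays named above, where the differences were 0.63, 0.77, 0.70 and 0.52 with adjusted p of 0.112 to 0.21.

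Against the direction of the list, 4 of its 25 genes had a lower mean in aged impaired than in young samples, and none passed. These genes are named after their values were seen. The cytokine gene Clcf1 differed by -1.27 ± 0.35 (adjusted p = 0.0733), the small heat shock protein gene Hspb1 by -0.63 ± 0.17 (adjusted p = 0.0716), the filament gene Nes by -0.59 ± 0.19 (adjusted p = 0.135) and B3gnt5 by -0.06 ± 0.25 (adjusted p = 0.944).

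In aged unimpaired against young samples 0 of these 25 genes were called by limma, beside 0.114% of all named genes that rose. Those of lowest p were H2-D1 (0.58 ± 0.19), the immunoproteasome subunit Psmb8 (0.60 ± 0.19) and Cd14 (0.64 ± 0.21), with adjusted p of 0.353 to 0.355. Both aged groups together gave 1 call, H2-D1 (0.70 ± 0.16, adjusted p = 0.0462), which held in 11 of 32 alternatives, beside 0.815% of all named genes that rose. Between the aged groups 0 were called, and the lowest p belonged to Clcf1 (-0.84 ± 0.35), Nes (-0.42 ± 0.19) and S1pr3 (0.37 ± 0.19).

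Of 28 further resting astrocyte genes, 27 were tested and 0 were called by limma in any comparison. In aged impaired over young samples 1.3% of all named genes rose, so 0 calls do not set a list of this length apart. The median of the 27 genes in that comparison was -0.07, with 10 means higher and 17 lower, beside 49.2% of all named genes with a higher mean. Lowest in p were S100b, a calcium-binding protein of astrocytes (0.21 ± 0.07, adjusted p = 0.122), Sparcl1, a secreted matrix protein (-0.21 ± 0.08), and Slc4a4, a bicarbonate cotransporter (0.17 ± 0.07). In aged unimpaired against young samples they were S100b (0.19 ± 0.07), Id4 (-0.23 ± 0.11) and the connexin gene Gjb2 (-0.55 ± 0.27). Between the aged groups they were Ppp1r3c (-0.24 ± 0.10), Slc4a4 (0.17 ± 0.07) and Slc6a11 (-0.34 ± 0.16).

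Of 22 genes of the pathway in which the Osmr protein acts, 16 were tested and 0 were called by limma in any comparison. Their median in aged impaired against young samples was 0.03. Beside the 1.3% of all named genes that rose there, 0 calls do not set this list apart either. Oncostatin M itself, Osm, differed by -0.00 ± 0.21, and the shared receptor subunit Il6st by 0.00 ± 0.11. Lowest in p were the transcription factors Stat3 (0.40 ± 0.14, adjusted p = 0.153), Cebpb (0.22 ± 0.09) and Cebpd (0.28 ± 0.12). In aged unimpaired against young samples they were Socs3, an inhibitor of the pathway that STAT3 induces (0.84 ± 0.28, adjusted p = 0.402), the kinase gene Tyk2 (-0.21 ± 0.09) and Cebpb (0.17 ± 0.09). Between the aged groups they were Il6ra (0.35 ± 0.18), Tyk2 (0.17 ± 0.09) and Stat3 (0.22 ± 0.14).

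**Figure D3:**
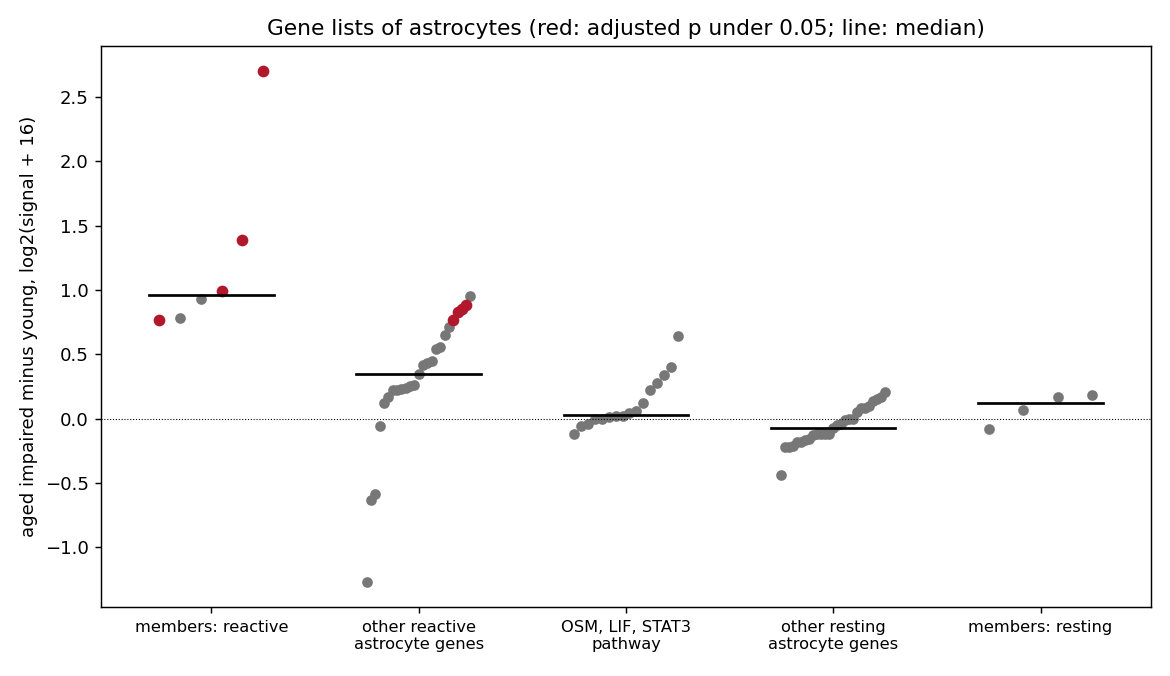
Difference between aged impaired and young samples in log2(signal + 16), 1 point per gene on its probe set of highest mean, for the 6 reactive genes, 25 further reactive genes, 16 pathway genes, 27 further resting genes and the 4 resting genes; red marks an adjusted p under 0.05 and the bar the median. The medians are 0.96 (0.93 without Lcn2), 0.35, 0.03, -0.07 and 0.12.

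Within groups, many reactive genes were high in the same few arrays. Each gene was centred on its group means, so that the group differences themselves do not enter, and all 45 pairs of the 10 genes were correlated over the 18 arrays. Of the 15 pairs of reactive genes, 12 had an adjusted permutation p under 0.05, with Pearson's r from 0.43 to 0.84 and a median of 0.70. By Spearman's rho 2 of the 15 did, Vim with Lcn2 and Osmr with Timp1. Of the 6 pairs of resting genes, 0 did, with r from -0.49 to 0.48, and of the 24 mixed pairs 1 did, Lcn2 with Aldh1l1 (r = 0.71, Spearman's rho = 0.67, adjusted permutation p = 0.041 for r and 0.0575 for rho, 45 pairs).

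This likeness was lower without the 3 arrays named above, where the median r of the 15 reactive pairs was 0.15, with a range of -0.41 to 0.71. These arrays were the highest for each reactive gene, so leaving them out lowers r in part by their choice. The values without them are therefore a description. Gfap and Vim, the filament genes, were the exception among the pairs given here. Their r was 0.78 over 18 arrays (rho = 0.68, permutation p = 0.0001 for r, adjusted 0.0045, and 0.00387 for rho, adjusted 0.0575). It was 0.73 without the 2 arrays farthest from the median of Gfap, the first gene of the pair, and 0.71 without the 3. Serpina3n and Lcn2 had an r of 0.84 over 18 arrays (rho = 0.69, adjusted permutation p = 0.041 for r and 0.0613 for rho), 0.65 without the 2 farthest arrays and -0.26 without the 3. Osmr and Timp1 gave 0.77 (rho = 0.75, adjusted permutation p = 0.0138 and 0.0331), 0.59 without the 2 farthest arrays and 0.45 without the 3.

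**Figure D4:**
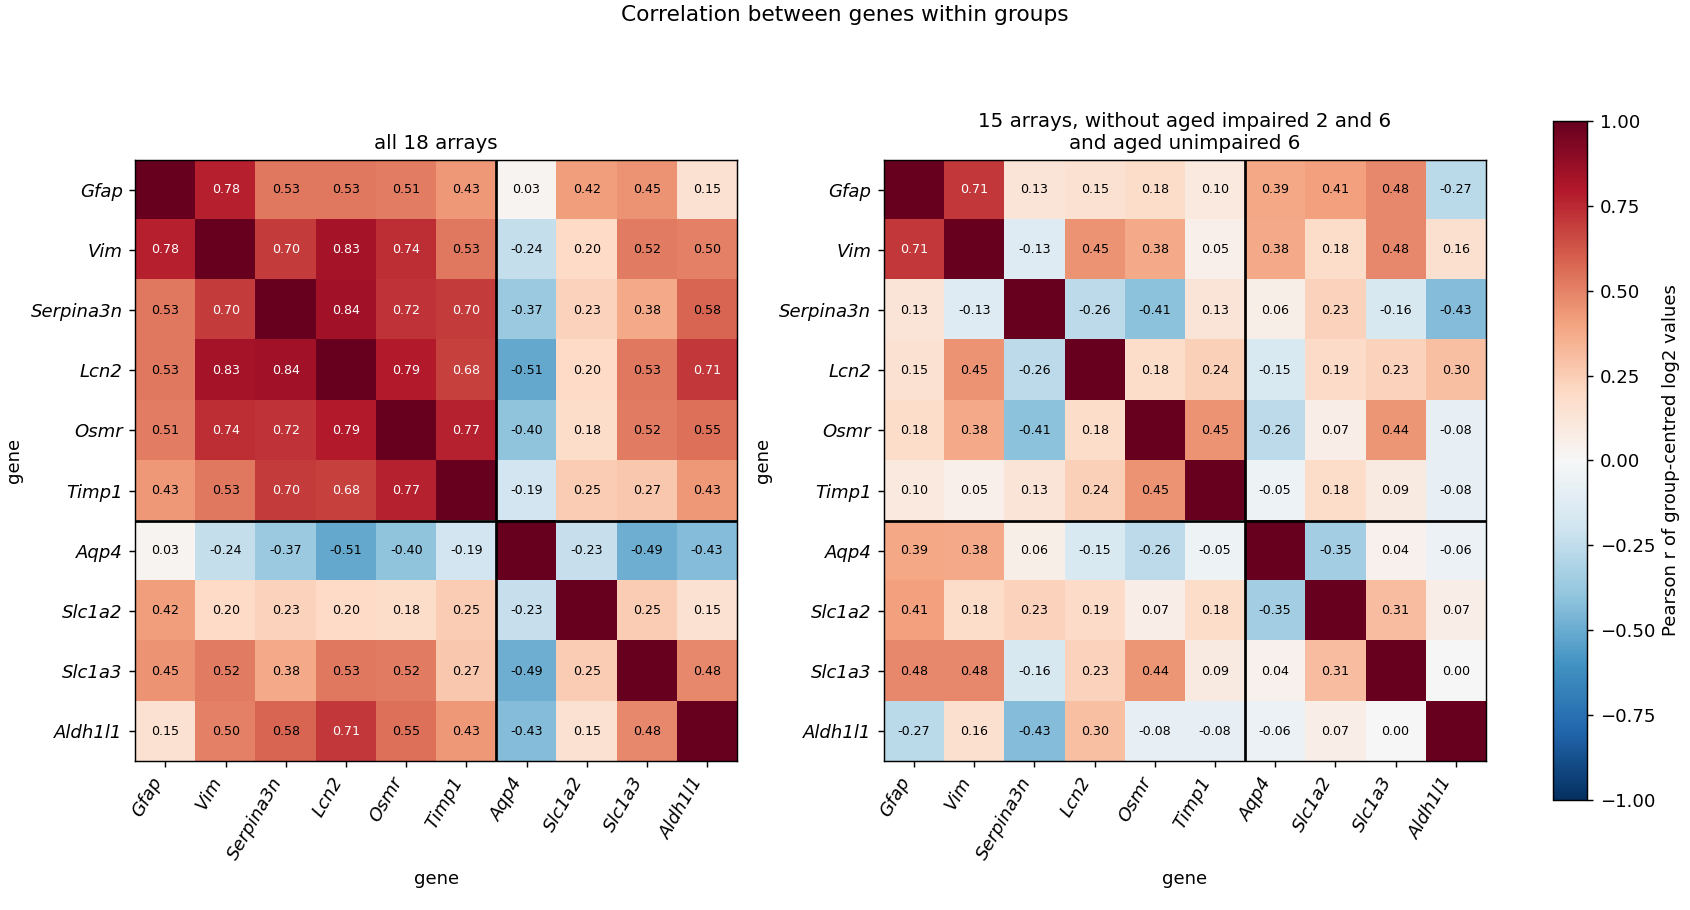
Pearson's r between the 10 genes after centring on group means, over all 18 arrays (left) and over the 15 arrays left without aged impaired replicates 2 and 6 and aged unimpaired replicate 6 (right), with reactive genes before and resting genes after the black lines. The block of reactive genes has a median of 0.70 on the left and 0.15 on the right, where Gfap with Vim keeps 0.71.

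Markers of other cell types moved with the same comparisons. The mean of 19 tested microglia genes was 9.65 ± 0.26 in aged impaired, 9.43 ± 0.28 in aged unimpaired and 8.75 ± 0.14 in young samples (SD, n = 6 each). No aged sample of either group overlapped the young range of 8.53 to 8.93, and both differences had an exact permutation p = 0.00216, the smallest that 6 against 6 can give, or 0.00972 adjusted over 18 such tests. Of the 19 genes, 13 rose in aged impaired and 4 in aged unimpaired over young samples, C1qb, Aif1, Fcer1g and Clec7a. Of all named genes 1.3% rose in aged impaired and 0.114% in aged unimpaired over young samples. The 6 of lowest p in aged impaired over young samples were the complement genes C1qb (0.95 ± 0.12) and C1qa (0.93 ± 0.14), the signalling adaptors Fcer1g (0.77 ± 0.11) and Tyrobp (0.96 ± 0.14), the protease inhibitor Cst7 (2.63 ± 0.39) and the lectin receptor Clec7a (2.59 ± 0.39), with adjusted p of 0.000421 to 0.00209. Their part in the differences of the reactive genes was not tested.

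Of the other lists, only oligodendrocyte genes had a level that passed the test. The mean of 15 oligodendrocyte genes was 11.62 ± 0.05 in aged impaired, 11.40 ± 0.16 in aged unimpaired and 11.30 ± 0.16 in young samples, with the aged impaired samples differing from aged unimpaired and from young samples at an exact permutation p = 0.00216 each (0.00972 adjusted). Of the 15 genes, 4 rose in aged impaired over young samples, the transcription factor gene Myrf (0.88 ± 0.15), the myelin genes Mog (0.46 ± 0.08) and Mag (0.63 ± 0.14), and Aspa (0.62 ± 0.15), beside the same 1.3% of all named genes. The mean of 22 vascular and leptomeningeal genes, whose cells also make Vim, was 9.04 ± 0.23 in aged impaired, 8.97 ± 0.25 in aged unimpaired and 9.16 ± 0.15 in young samples. The exact permutation p was 0.329 for aged impaired against young samples. This mean joins genes that differed in both directions there, 9 higher and 13 lower, from Vwf (0.76 ± 0.25) to Col1a1 (-1.14 ± 0.31). The mean of 14 neuron genes was 13.11 ± 0.01 in aged impaired, 13.13 ± 0.09 in aged unimpaired and 13.13 ± 0.07 in young samples. Of the vascular, choroid plexus and neuron genes, 0 were called by limma in any comparison, where 1.3% of all named genes rose in aged impaired over young samples.

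Choroid plexus genes, from tissue that lies beside the hippocampus, varied from array to array in every group. The mean of 17 of them was 9.31 ± 1.15 in aged impaired, 8.48 ± 1.51 in aged unimpaired and 9.30 ± 1.14 in young samples. The arrays fell into 13 with values of 8.66 or more (5 aged impaired, 3 aged unimpaired and 5 young) and 5 with values of 7.39 or less. Over the 13 alone, a choice made after seeing the data, 3 member probe sets rose in aged impaired over young samples: Serpina3n, Osmr and the Gfap probe set 1426509_s_at. Gfap on its probe set of highest mean was 0.80 higher with adjusted p = 0.0722.

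After centring, the microglia level had an adjusted permutation p under 0.05 with 5 of the 6 reactive genes by r and with 3 by rho. It correlated with Osmr at r = 0.89 (rho = 0.83, adjusted permutation p = 0.0037 and 0.0021 in a family of 30, r = 0.80 without the 2 farthest arrays), and at 0.61 without the 3 arrays. For Gfap r was 0.70 (rho = 0.53, adjusted permutation p = 0.00397 and 0.098), 0.56 without the 2 farthest arrays and 0.62 without the 3. For Serpina3n r was 0.82 (rho = 0.54, adjusted permutation p = 0.0393 and 0.101), 0.54 without the 2 farthest arrays and -0.37 without the 3. The 3 arrays were the highest in the microglia level and in each reactive gene, so a lower r without them follows in part from their choice. Lcn2 had an r of 0.87 (rho = 0.73, adjusted permutation p = 0.0107 and 0.022), 0.70 without the 2 farthest arrays and 0.21 without the 3, and Vim an r of 0.84 (rho = 0.71, adjusted permutation p = 0.0037 and 0.0154), 0.61 without the 2 farthest and 0.50 without the 3. Timp1 did not pass, with an r of 0.64 (rho = 0.48, adjusted permutation p = 0.0586 and 0.137), 0.52 without the 2 farthest arrays and -0.03 without the 3. Of the 6 reactive genes, Vim and Lcn2 passed with the vascular and leptomeningeal level by both measures and Gfap by r. The r of Vim was 0.81 (rho = 0.87, adjusted permutation p = 0.0024 and 0.0006), 0.74 without the 2 farthest arrays and 0.70 without the 3. The r of Lcn2 was 0.68 (rho = 0.74, adjusted permutation p = 0.0393 and 0.0154), 0.48 and 0.34, and that of Gfap was 0.56 (rho = 0.50, adjusted permutation p = 0.0474 and 0.101), 0.44 and 0.33, each without the 2 farthest arrays and without the 3.

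For the resting genes 0 of 4 relations with the microglia level passed: r was -0.34 for Aqp4, 0.22 for Slc1a2, 0.52 for Slc1a3 and 0.51 for Aldh1l1, with adjusted permutation p between 0.0954 and 0.521. Without the 3 arrays these values were 0.02, 0.19, 0.57 and -0.33, so that Slc1a3 was then close to Gfap and Osmr in this measure. Whether reactive and resting genes differ in it was not tested. With the microglia level as a covariate, 0 member probe sets and 0 of all probe sets were called in aged impaired against young samples, and the difference was 0.08 for Gfap, 0.16 for Serpina3n and 0.08 for Osmr. Since the microglia levels of the aged and young samples do not overlap, this covariate and age can hardly be told apart.

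**Figure D5:**
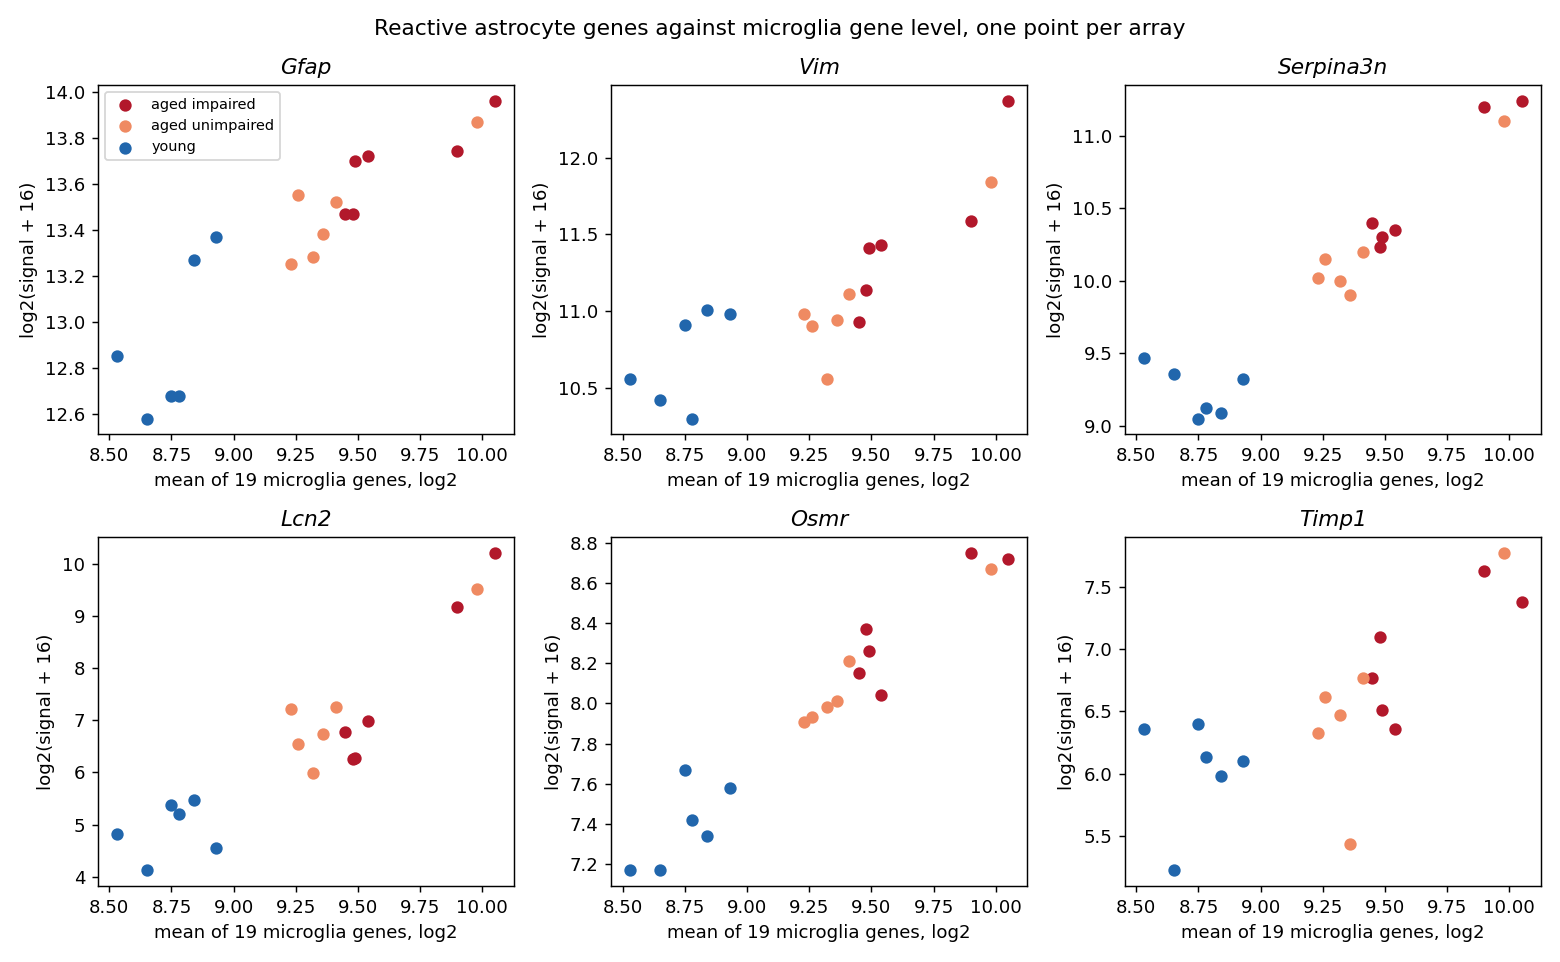
Log2(signal + 16) of each of the 6 reactive genes (vertical) against the mean log2 value of 19 microglia genes (horizontal), 1 point per array, for aged impaired, aged unimpaired and young samples. The 3 arrays at the right, between 9.90 and 10.05, are aged impaired replicates 2 and 6 and aged unimpaired replicate 6, and all young arrays lie left of all aged arrays.

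The named genes most like 3 members within groups were found among 13120 others by the centred correlation over 18 arrays, given as a description. For Gfap they were Gga1 (0.88), Itgax (0.88), Litaf (0.87), Slamf9 (0.86) and Lamp1 (0.86), and without the 3 arrays these values were 0.80 to 0.88. For Serpina3n they were Nupr1 (0.88), Csf1r (0.86), Mpeg1 (0.85), Icam1 (0.85) and Lcn2 (0.84), and without the 3 arrays these values were -0.26 to 0.44. For Slc1a2 they were Enc1 (0.83), Slc38a9 (0.82), Npc1 (0.80), Tcf4 (0.80) and Fam168a (0.78), and without the 3 arrays the values were 0.78 to 0.83.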

How the data were processed

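The authors deposited one linear intensity value per probe set and array, and the submitters' processing notes name MAS5. The labels' protocols give total RNA with a biotin label; software version, settings and genome build were not given in the sources used here. Deposited arrays had a trimmed mean of 150, and each was rescaled to a 2%-trimmed mean of 500 before 16 was added and values were put on the log2 scale. Leaving out 64 control probe sets and the dimmest 40% of the others, by mean over all arrays, kept 27022.

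Probe sets were named by the platform annotation, which gives 1 symbol for 34945, of which 34741 matched a RefSeq gene table, and several for 932. A single probe set that names Slc1a2 beside another gene was left out.

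limma 3.58.1 in R 4.3.3 fitted 3 group means to all 18 arrays, with empirical Bayes moderation, 2-sided tests of 4 comparisons and Benjamini-Hochberg adjustment. Correlations used 100000 permutations within groups (Python 3.11.15, numpy 2.4.6), and marker levels an exact permutation test, 2-sided. The 2 farthest arrays were those farthest from the median of the centred values of the first gene of a pair. Against a marker level they were taken from the gene. Arrays extreme only for the second gene or the level could therefore stay. Values were centred again without the 3 arrays, but not without the 2. The members and lists were chosen with earlier results of these data known. All members are named, and of each list the called genes if 6 or fewer, the 6 of lowest p if more, and otherwise the 3 of lowest p as values. Vascular, choroid plexus and neuron genes are given by level and count only, apart from Vwf and Col1a1. Vwf and Col1a1 were named as the ends of the vascular range after their values were seen. On simulated data for aged impaired against young samples (27022 probe sets), 36%, 82%, 94% and 98% of changes of 0.5, 1, 1.5 and 2 were recovered, with 3 false calls. The simulated noise was normal, independent between probe sets and of the same spread in all groups. It held no arrays that were high for many genes at once, so these shares need not hold for the real arrays.

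Replicate numbers did not pair the arrays: of 18 same-numbered pairs, 0 had deviations correlated above 0.1 (-0.247 to 0.096). The alternatives were the replicate number as a block, quantile normalization, an added 1 or 64 in place of 16, a filter of 60% or none, trended and robust moderation, array weights, covariates for choroid plexus, microglia and vascular levels and the 3' to 5' ratio, fits restricted to the groups in a comparison, and each array left out in turn. Leaving out 3 arrays, keeping arrays with high choroid plexus signal, trying the alternatives on the list genes and counting members without Lcn2 were chosen after seeing the data.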

Additional observations from a re-analysis of the deposited data

Results flagged for a closer look

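An array was singled out where its gap to the nearest array of its group exceeded Dixon's 95% limit for 6 arrays. This held in 9 of 72 groups of values over the 24 tested probe sets, where chance gives about 5% for normal values. The 72 groups share genes and arrays, so they are not separate trials. The share over all tested probe sets was not counted.

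Aged unimpaired replicate 6 stood above the other aged unimpaired arrays for 4 reactive genes: Lcn2 (9.53, next 7.26), Serpina3n (11.10, next 10.20), Vim on 1456292_a_at (11.31, next 10.33) and Gfap on 1440142_s_at (11.40, next 10.79). It was also the aged unimpaired array with the highest mean of microglia genes, 9.98, and had a high choroid plexus level, 10.39. The part of either in these values was not tested.

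Aged impaired replicate 4 was low for Gfap on 1440142_s_at (10.65, next 11.01). Aged impaired replicate 2 was high for Slc1a3 on 1443749_x_at (12.38, next 11.90). Young replicate 2 was low for Timp1 (5.22, next 5.98) and for the Slc1a2 probe sets 1439940_at (8.97, next 9.49) and 1459014_at (4.79, next 6.78).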

How the results depend on the processing

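In aged impaired against young samples the calls of Serpina3n, Osmr and the Gfap probe set 1426509_s_at held in 32 of 33 alternatives and ended with the microglia covariate (adjusted p = 0.885, 0.918 and 0.795). Gfap on its probe set of highest mean held in 30 of 33. The cause of each change below was not tested.

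Counts of member calls include Lcn2; without it, those in aged impaired against young samples were 6, with 0 to 9 over the alternatives, and for both aged groups 4, with 0 to 8. Member probe sets called in aged impaired against young samples (7) became 4 without the filter, 4 with the replicate block, 0 with the microglia covariate and 3 on arrays with high choroid plexus signal; all probe sets called (440) became 193, 240, 0 and 130, and 904 with the vascular covariate, 241 with only the groups compared and 144 without the 3 arrays. In aged unimpaired against young samples members (0) became 1 with quantile normalization, an offset of 64 or the replicate block, 2 with trended moderation, array weights or the choroid plexus covariate, 3 with the 60% filter or without the 3 arrays, and 6 with the vascular covariate. All probe sets (37) became 13 without the filter, 17 with the replicate block, 58 with trended moderation, 57 with array weights, 14 with the microglia covariate, 115 with the vascular covariate, 23 with the 3' to 5' ratio, 22 with only the groups compared and 14 on high choroid plexus arrays. For both aged groups members (5) became 8 with the choroid plexus, 0 with the microglia and 9 with the vascular covariate, and 1 on high choroid plexus arrays; all (256) became 131 without the filter, 141 with the replicate block, 7 with the microglia and 544 with the vascular covariate, 55 on high choroid plexus arrays and 126 without the 3 arrays. Between the aged groups members stayed at 0 in every alternative, and all probe sets (3) became 6 with the 60% filter, 9 with trended moderation, 5 with the microglia covariate, and 0 with the replicate block, with only the groups compared and without the 3 arrays.

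Leaving out each array gave 4 to 8 member calls in aged impaired against young samples (4 without aged impaired 2 or 6, aged unimpaired 1, 4 or 5, or young 1, 2, 5 or 6), 0 to 1 in aged unimpaired against young, 4 to 5 for both aged groups and 0 to 0 between the aged groups. All probe sets called were 228 to 467, 16 to 37, 116 to 274 and 2 to 4; they moved over 1.5 times in aged impaired against young samples without aged impaired 2, 3 or 6 or young 1, 3, 5 or 6 (228 to 292), in aged unimpaired against young without aged unimpaired 1, 3 or 6 or young 2, 5 or 6 (16 to 22), and for both aged groups without aged unimpaired 3 or young 1, 2, 3, 5 or 6 (116 to 160).

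With the microglia covariate several differences changed sign, given here for all probe sets of Gfap and Vim and the probe set of highest mean of the others. In aged impaired against young samples they were -0.01 (Gfap 1440142_s_at), -0.57, -0.23 and -0.45 (Vim), -1.46 (Lcn2), -0.52 (Timp1), 0.15 (Aqp4), -0.06 (Slc1a2), -0.42 (Slc1a3) and -0.13 (Aldh1l1). In aged unimpaired against young samples they were -0.07 (Gfap 1440142_s_at), -0.66, -0.29 and -0.49 (Vim), -0.84 (Lcn2), -0.55 (Timp1), 0.06 (Aqp4), -0.03 (Slc1a2) and -0.20 (Aldh1l1). For both aged groups they were -0.04, -0.62, -0.26, -0.47, -1.15, -0.54, 0.10, -0.05, -0.45 and -0.17 in the order of the first list, and between the aged groups -0.62 (Lcn2).

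On the same probe sets the other changes of sign were as follows. Between the aged groups Slc1a2 was 0.03 (quantile), 0.02 (array weights), 0.01 (choroid plexus covariate), 0.08 (3' to 5' ratio), 0.09 (high choroid plexus arrays) and 0.00 (without the 3 arrays), and -0.05 to 0.04 leaving out each array; Aqp4 was -0.06 on high choroid plexus arrays and -0.02 to 0.12 leaving out each array; without the 3 arrays Slc1a3 was -0.05 and Lcn2 -0.18, and Lcn2 was -0.12 to 0.86 leaving out each array. In aged impaired against young samples without the 3 arrays Aqp4 was 0.05 and Slc1a3 -0.06, and for both aged groups Slc1a3 was -0.03. In aged unimpaired against young samples Slc1a3 was 0.02 (choroid plexus) and 0.08 (vascular covariate) and -0.08 to 0.03 leaving out each array, Slc1a2 -0.01 (3' to 5' ratio) and -0.03 and Aqp4 0.01 (high choroid plexus arrays), and Aldh1l1 -0.00 to 0.07 leaving out each array (-0.00 without young replicate 4). Of the 40 differences of the 10 remaining tested probe sets, 33 changed sign in at least 1 alternative; in aged impaired against young samples the microglia covariate gave -0.71 (Osmr 1418675_at), -0.77 (Aldh1l1), -0.07 (Aqp4), -0.20 (Slc1a2) and -0.31, -0.68 and -0.30 (Slc1a3), and Osmr 1418675_at reached 0.18 in aged unimpaired against young samples. Signal in the range of the genes of other tissues limits Lcn2, Timp1 and both tested Osmr probe sets, and in some young samples Serpina3n. Among the resting genes it limits Aldh1l1 1424401_at, Slc1a2 1459014_at and 1451627_a_at, and Aqp4 1447745_at. Above 7.59 that range rests on Myh7 alone.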
